A study of Mus musculus with 6 samples.

Results

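The 10 genes described here encode parts of the insulin-like growth factor (IGF) and insulin signalling pathway: the ligand Igf1, the receptors Igf1r, Insr and Igf2r, the receptor adaptors Irs1 and Irs2, the secreted binding proteins Igfbp3, Igfbp4 and Igfbp5, and the transcription factor Foxo1. They were taken by name, 10 of the 32739 genes in each sample file, and all 10 were matched to an Ensembl identifier. The list was chosen with the difference between BRL and vehicle in these libraries already known, so that difference is given for the 10 genes as a description, with no test. The RNA came from HL-1, an established mouse line of atrial cardiomyocyte origin kept in Claycomb medium. All cells, controls included, went under hypoxia and reoxygenation, given as 6 h and 1 h in the series' design text and as ReOx7h in the sample descriptions. The 3 vehicle libraries received no agonist, and the 3 BRL libraries received 5 µM BRL37344, an agonist of the β3-adrenergic receptor. The labels do not say when BRL was added relative to hypoxia. HL-1 is a single established line, no library without hypoxia was analysed here, and the labels do not name separate cultures within a group, so errors and p-values cover only the differences among these samples, which can be technical.

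IGF1 and insulin bind 2 related receptor tyrosine kinases, IGF1R and INSR, which phosphorylate the docking proteins IRS1 and IRS2 and through them switch on the kinases PI3K and AKT. AKT in turn phosphorylates FOXO1 and keeps it out of the nucleus, so that genes FOXO factors can activate, Irs2 and Insr among them, are restrained while insulin signalling is on. IGF-binding proteins hold IGFs outside the cell and set how much ligand reaches the receptor, and IGF2R takes IGF2 up for degradation in lysosomes. In cardiomyocytes the pathway is known for growth, glucose uptake and survival after ischaemia.

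Total expected counts, the read counts that RSEM assigns to genes, ranged from 4440168 to 5060049 in vehicle and from 6812810 to 8332472 in BRL. BRL replicate 1 stood apart: mitochondrially encoded transcripts took 5.03% of its counts (Wilson 95% interval 5.01% to 5.05%, counting error only) against 16.54% to 21.9% in the other 5 libraries. Its chi-square per degree of freedom against BRL replicates 2 and 3 was 89.15 and 76.83, against 4.2 between those 2, so fold changes and counts below are also given without it. Most cardiomyocyte markers were abundant, led by Myh6 (the 1 of 15 tested that fell, none rose), and the summed level of the 16 was 7878.3 to 8703.4 CPM (counts relative to library size, scaled by edgeR's TMM factors) in vehicle and 4611.1 to 6209.6 CPM in BRL. Low among them were Sln (0 to 5 counts, not tested) and Myh7 (2.53 to 5.61 CPM). Of the markers of other cell types none passed the test, and those of fibroblasts and leukocytes were near the detection limit. The 10 fibroblast markers summed to 3.99 to 6.28 CPM in vehicle and 3.31 to 4.28 CPM in BRL with Dcn, Lum, Tcf21 and Thy1 at 0, and the 9 leukocyte markers to 3.65 to 4.62 and 2.65 to 5.38 CPM with Ptprc, Adgre1, Csf1r and Lyz2 at 0. The 9 endothelial markers, led by Egfl7, summed to 23.8 to 31.0 CPM in vehicle and 28.7, 60.5 and 57.2 CPM in BRL replicates 1 to 3, with Emcn at 0. The 8 smooth muscle markers, led by Acta2, summed to 3590.7 to 4010.7 CPM in vehicle and 1615.5 to 3162.0 CPM in BRL. None of them was at 0, but Myh11 had only 1 to 2 counts in each library and was not tested. The part of these cell types in the differences below was not tested.

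Of the 10 genes, 9 passed the filter on low counts. In edgeR's quasi-likelihood fit over 12047 genes, 2 of the 9, Igf1 and Irs2, were past the threshold (adjusted p under 0.05) in the direction of BRL, where 1.01% of all genes tested were, and 1, Igfbp5, was past it in the direction of vehicle, where 1.79% of all genes were (2.81% in either direction). Since the list was chosen on this contrast, nothing is read from these counts. Over the 9 genes the log2 fold change had a median of -0.01, as against 0.01 over every gene tested. Every BRL library lay above every vehicle library in 3 of the 9 genes (16.0% of all genes tested) and below in 2 (15.5%).

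**Figure D1:**
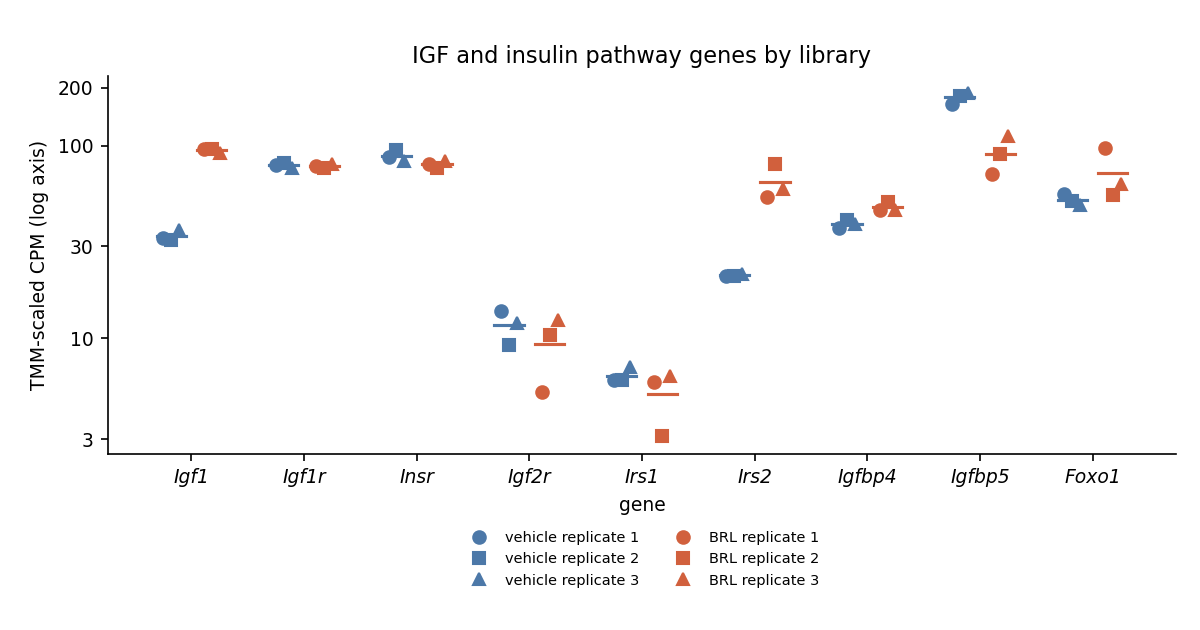
TMM-scaled CPM (log axis) of the 9 detected genes, with 1 point for each library, shape for the replicate number and a line at the mean of each group of 3. Igf1 and Irs2 stand higher in all 3 BRL libraries, Igfbp5 lower, and Foxo1 is spread in BRL by replicate 1 at 97.4 CPM.

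Among the ligands, Igf1 was the one with a substantial level. Igf1 measured 33.2, 32.5 and 36.5 CPM in vehicle replicates 1, 2 and 3 and 96.6, 95.9 and 91.9 CPM in BRL replicates 1, 2 and 3. The 3 BRL libraries lay close together and far above every vehicle library, and BRL replicate 1 was no exception. The means were 34.1 ± 2.12 and 94.8 ± 2.55 CPM (SD, n = 3 in each group), a log2 fold change of 1.48 ± 0.10 (SE), or 2.78-fold, and 2.76-fold without BRL replicate 1. In bulk RNA, more cells with a transcript and more of it per cell cannot be told apart. Igf2, the fetal growth factor, had 13 to 27 counts in vehicle and 9 to 52 in BRL (3.91 ± 1.37 and 4.11 ± 2.65 CPM, edgeR adjusted p = 0.958), and no difference was detected. Its log2 fold change moved from 0.07 ± 0.54 to 0.51 without BRL replicate 1 (edgeR adjusted p = 0.250). The insulin genes Ins1 and Ins2 had no counts in any library, where a floor of 3 counts corresponds to 0.360 to 0.676 CPM.

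The receptors of these ligands differed little. Igf1r, the receptor that carries most IGF1 signalling, stood at 79.4, 81.6 and 76.8 CPM in the vehicle libraries and at 78.1, 76.9 and 80.5 CPM with BRL. These values overlapped throughout, with a log2 fold change of -0.01 ± 0.09, and 0.00 without BRL replicate 1. Insr, the insulin receptor, had vehicle values of 87.0, 94.6 and 83.1 CPM and BRL values of 80.7, 76.2 and 83.1 CPM. Its highest BRL library lay just under its lowest vehicle library, and the log2 fold change was -0.14 ± 0.10 with all libraries and -0.14 without BRL replicate 1. Igf2r, which clears IGF2 and sorts lysosomal enzymes, had 13.9, 9.23 and 12 CPM in vehicle replicates 1 to 3 and 5.29, 10.4 and 12.5 CPM in BRL replicates 1 to 3. Only BRL replicate 1 lay below the vehicle range, and leaving it out moved the log2 fold change of Igf2r from -0.31 ± 0.31 to -0.02.

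The related adaptors differed from each other. Irs2 stood at 21.1, 21.0 and 21.5 CPM in the vehicle libraries and at 54.3, 80.4 and 59.7 CPM with BRL. The vehicle libraries were nearly identical and every BRL library was above them, with BRL replicate 2 the highest. The means were 21.2 ± 0.269 and 64.8 ± 13.8 CPM, a log2 fold change of 1.61 ± 0.16, or 3.05-fold, and 3.30-fold without BRL replicate 1. Irs1, its relative with the same docking role, had vehicle values of 6.05, 6.08 and 7.09 CPM and BRL values of 5.96, 3.10 and 6.35 CPM. The groups overlapped, and the lowest library, BRL replicate 2, was the one with the highest Irs2. The log2 fold change of Irs1 was -0.31 ± 0.30, -0.42 without BRL replicate 1 and -0.06 without BRL replicate 2. Expected counts of both adaptors were not whole numbers, which means that RSEM divided some reads between loci. An exon of Irs1 overlaps Gm9747 on the opposite strand, itself listed at 3.79 CPM in vehicle and 1.86 CPM in BRL. An exon of Irs2 overlaps 9530052E02Rik on the opposite strand, which is not among the genes counted. Whether the libraries kept the strand is not given, and the part of these overlaps was not tested.

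Upstream sequence is shown for Igf1 and Irs2, which were higher together, for Irs1, the adaptor that was not, and for Igfbp5, which was lower. Each line holds the 250 bases before the RefSeq transcription start, 5′ to 3′ on the strand of the gene, build GRCm38.p6, with the motif CACGTG, the palindromic E-box core, in capitals where present. The deposited counts do not show which start site these cells used.
Igf1 (chr10:87860861-87861110, plus strand): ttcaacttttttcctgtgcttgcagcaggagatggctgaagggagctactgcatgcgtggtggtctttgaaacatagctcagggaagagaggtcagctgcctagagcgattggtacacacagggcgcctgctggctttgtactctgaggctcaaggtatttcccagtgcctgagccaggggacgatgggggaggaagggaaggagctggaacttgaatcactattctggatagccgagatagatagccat
Irs2 (chr8:11008930-11009179, minus strand): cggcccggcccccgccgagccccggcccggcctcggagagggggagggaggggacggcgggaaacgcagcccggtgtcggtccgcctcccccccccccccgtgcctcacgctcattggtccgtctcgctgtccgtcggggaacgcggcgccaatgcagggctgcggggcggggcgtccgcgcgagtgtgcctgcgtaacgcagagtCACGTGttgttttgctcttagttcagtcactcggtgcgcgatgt
Irs1 (chr1:82291440-82291689, minus strand): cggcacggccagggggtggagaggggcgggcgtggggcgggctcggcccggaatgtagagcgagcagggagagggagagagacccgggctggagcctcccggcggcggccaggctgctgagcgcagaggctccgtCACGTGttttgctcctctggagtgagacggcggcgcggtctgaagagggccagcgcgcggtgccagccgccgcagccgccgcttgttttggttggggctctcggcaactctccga
Igfbp5 (chr1:72874866-72875115, minus strand): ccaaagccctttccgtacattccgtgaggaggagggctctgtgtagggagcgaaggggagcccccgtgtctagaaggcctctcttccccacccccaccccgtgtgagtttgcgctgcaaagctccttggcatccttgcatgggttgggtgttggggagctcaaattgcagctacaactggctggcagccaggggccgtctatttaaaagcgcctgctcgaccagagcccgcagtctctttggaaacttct

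RefSeq windows were found for 9 of the 10 genes. The windows of Irs2 and Irs1 are rich in G and C (72.8% and 72.4%), those of Igf1 and Igfbp5 less so (52.8% and 58.8%), against a median of 52.4% over 32851 windows of the same length. The CG dinucleotide occurs 34 and 28 times in Irs2 and Irs1 and 5 and 10 times in Igf1 and Igfbp5, where the median window has 6. The motifs named next were searched on both strands as exact letters only. Other forms of the sites these factors bind were not searched. The windows of Igf1, Irs2, Irs1 and Igfbp5 hold none of the motifs: TGTTTAC, a core bound by FOXO factors (in 3.17% of all windows), TGACGT, the core of the cyclic AMP response element (6.47%), and AAGGTCA, a site bound by NR4A receptors (4.08%). Among the other windows, that of Igf1r holds AAGGTCA and that of Igf2r TGACGT, the latter overlapping an E-box core by 2 bases. The E-box core was added after the windows were seen and lies in 6.02% of all windows. It is at 44 to 39 bases before the start in Irs2 and 115 to 110 in Irs1. The longest runs the adaptors' windows share are 10 bases, gtcacgtgtt, which holds the E-box core, and tgttttgctc, which does not. The window of Igf2r holds the E-box core 2 times. These are matches of letters, present in the adaptor that was higher in BRL and in the one that was not.

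Of the binding proteins, Igfbp5 was the most abundant and was lower in BRL. Igfbp5, which binds IGFs in the extracellular matrix, stood at 164.6, 181.7 and 188.1 CPM in the vehicle libraries and at 71.3, 90.0 and 111.7 CPM with BRL. The groups did not overlap, and BRL replicate 1 had the lowest value. The means were 178.1 ± 12.2 and 91.0 ± 20.2 CPM, a log2 fold change of -0.97 ± 0.16, and -0.81 without BRL replicate 1. In fits that left out 1 library, Igfbp5 was no longer past the threshold without vehicle replicate 1, 2 or 3 or BRL replicate 2, with log2 fold changes of -1.14 to -0.81 over the 6 fits. Igfbp4, which mainly restrains IGF action, went the other way by a small amount, from 37.4, 40.9 and 39.1 CPM in vehicle to 46.3, 51.1 and 46.1 CPM in BRL. The groups did not overlap, the log2 fold change was 0.29 ± 0.10, and it was past the threshold only in the fit without BRL replicate 1 of the 6 leave-one-out fits. Igfbp3, the main carrier of IGFs in blood, had no counts in any of the 6 libraries, below the floor of 0.360 to 0.676 CPM. Of the other binding-protein genes, Igfbp7, which binds IGFs weakly and is also a matrix protein, was tested (15.3 ± 1.35 and 15.4 ± 1.42 CPM, edgeR adjusted p = 0.981; counts not whole, and an exon overlaps Polr2b on the opposite strand).

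Foxo1, the factor that AKT restrains, had 1 library far from the rest. Its vehicle values were 55.8, 51.6 and 49.3 CPM and its BRL values 97.4, 55.5 and 63.4 CPM. BRL replicate 1 was the highest, BRL replicate 2 lay within the vehicle range and BRL replicate 3 above it. The log2 fold change was 0.47 ± 0.20 with all libraries and 0.20 without BRL replicate 1. Of the other FOXO genes, Foxo3 had a mean of 91.7 ± 1.85 CPM with vehicle and 83.0 ± 1.92 CPM with BRL (log2 fold change -0.14 ± 0.09, edgeR adjusted p = 0.373; -0.15 and 0.180 without BRL replicate 1), and Foxo4 and Foxo6 did not pass either.

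**Figure D2:**
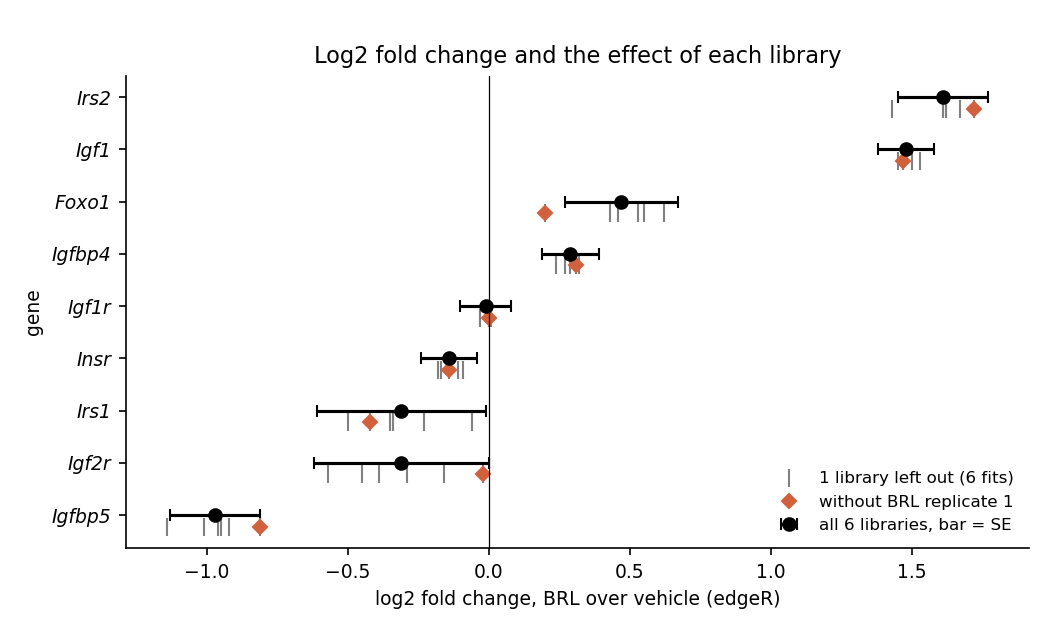
Log2 fold change of BRL over vehicle for the 9 genes with all 6 libraries (point, bar = SE), with 1 library left out (grey ticks) and without BRL replicate 1 (diamond). Igf1 stays between 1.45 and 1.53 and Irs2 between 1.43 and 1.72, whereas Foxo1 goes from 0.47 to 0.20 and Igf2r from -0.31 to -0.02 without BRL replicate 1.

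Levels of different genes were compared per transcript length, in TPM taken from the RSEM fraction of each gene. The order given here depends on the transcript lengths behind that fraction, described below. In vehicle, Igfbp5 had the highest level at 46.4 ± 2.23 TPM, above every library of any other of the 10 genes. Igf1r (30.1 ± 1.20 TPM) and Igfbp4 (29.2 ± 0.504 TPM) followed with overlapping ranges. Insr (14.8 ± 0.349), Foxo1 (14.5 ± 1.42) and Igf1 (12.9 ± 2.83 TPM) overlapped in turn, and Irs2 (8.12 ± 0.285), Igf2r (3.16 ± 2.01) and Irs1 (1.07 ± 0.0888 TPM) came last, each apart from the next. The order differed in BRL. Igf1 was first at 44.3 ± 6.34 TPM, where its range overlapped that of Igfbp4 (38 ± 6.84 TPM), and Irs2 stood at 25.7 ± 3.22 TPM beside Igfbp5 at 24.1 ± 3.27 TPM, with overlapping ranges. From Igf1 down to Insr (14.4 ± 2.77 TPM), every neighbour in the BRL order overlapped the next. Without BRL replicate 1 the order was the same, with Igf1 at 41.4, Igfbp4 at 33.7, Irs2 at 24.8 and Igfbp5 at 24.1 TPM, and the ranges of Igf1 and Igfbp4 no longer overlapped.

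**Figure D3:**
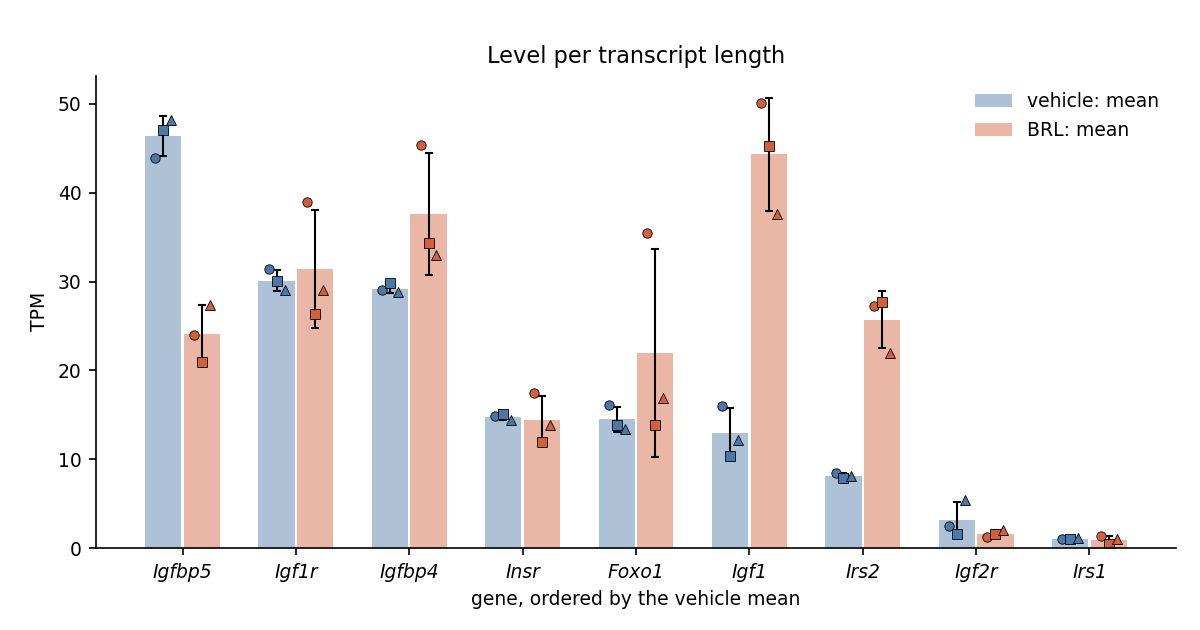
TPM of the 9 detected genes, ordered by the vehicle mean. Bars are means of 3 libraries, error bars SD, and points single libraries with shape for the replicate number. With the transcript lengths RSEM used, Igfbp5 leads in vehicle at 46.4 TPM and Igf1 in BRL at 44.3 TPM.

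Ratios of TPM within a library set the genes of a role side by side. Igf1r stood at 2.11, 1.99 and 2.01 times Insr in vehicle and 2.23, 2.21 and 2.09 times in BRL, so the ratio of the receptors overlapped between the groups. The mean CPM in vehicle was 79.3 for Igf1r and 88.2 for Insr. The lengths behind TPM were 4078 to 4155 bases for Igf1r and 8862 to 9538 bases for Insr. Their longest reference transcripts are 11409 and 9355 bases, so which receptor stands higher per length depends on the lengths used. Igfbp5 stood at 1.51, 1.58 and 1.67 times Igfbp4 in vehicle and 0.528, 0.608 and 0.831 times in BRL. On this scale Igfbp5 was above Igfbp4 in all 3 vehicle libraries and below it in all 3 BRL libraries. In CPM, Igfbp5 was above Igfbp4 in BRL too (means of 91.0 and 47.8). The lengths behind TPM were 5876 to 6116 bases for Igfbp5 and 2091 to 2097 for Igfbp4, whose longest reference transcript is 3831 bases. The order of these binding proteins in BRL therefore depends on the lengths used. Irs2 stood at 8.01, 7.96 and 6.99 times Irs1 in vehicle and 20.7, 58.7 and 21.3 times in BRL. The ratio of 58.7 in BRL replicate 2 rests on 22.23 expected counts of Irs1.

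The TPM of a gene with several transcripts also depends on how RSEM divided its reads among them. Dividing counts by fractions gives the mean transcript length behind each value, put in bases by at least 1401 genes with 1 annotated transcript per library. For Irs2, with 1 transcript, it was 4073 to 4084 bases in all 6 libraries. For Igf1, with 9 transcripts in the files, it was 3379, 4743 and 4609 bases in vehicle and 3962, 2982 and 3673 bases in BRL, a range of 1.59-fold, where genes with several transcripts and at least 100 counts in every library had a median range of 1.12-fold. Lengths overlapped between the groups. The ratio of the Igf1 means was 3.45 on the TPM scale against 2.78-fold in the fit of counts. For Igf2r the length was 9045 to 9068 bases in 5 libraries and 3397 bases in vehicle replicate 3, the library with the highest TPM of Igf2r (5.42) although its CPM (12) was between those of the other vehicle libraries (13.9 and 9.23). Levels of Igf1 and Igf2r per length are therefore less certain than their CPM. For Igf1r the length was steady at 4078 to 4155 bases, against 11409 for its longest reference transcript. For Igfbp4, Irs2 and Foxo1 it was at most 2097, 4084 and 5650 bases, against 3831, 6323 and 8665. The order of genes in TPM therefore holds only for the lengths RSEM used, and BRL levels were not computed with the longest lengths.

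**Figure D4:**
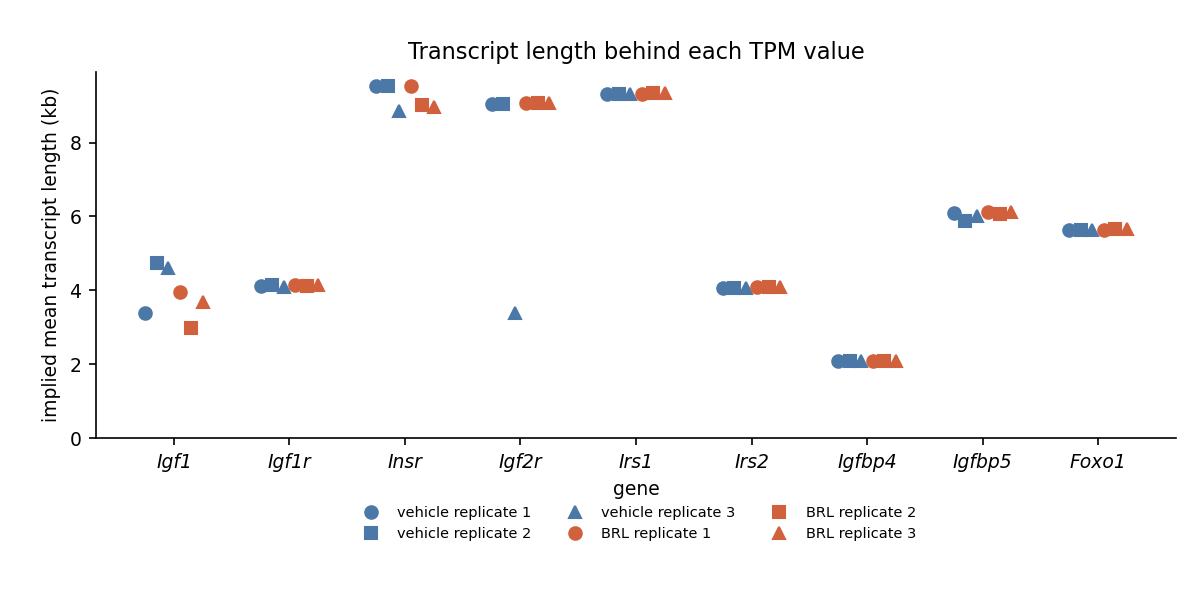
Mean transcript length (kb) implied by the deposited count and fraction of each gene, 1 point for each library. The points of Irs2, Irs1, Foxo1 and Igfbp4, and nearly those of Igf1r, coincide across libraries, those of Igf1 spread from 2982 to 4743 bases, and Igf2r has vehicle replicate 3 apart at 3397 bases.

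By Euclidean distance between log2 CPM values centred on their mean over the 6 libraries, among 10425 other genes with a symbol and at least 5 CPM, the pattern nearest to Irs2 was that of Arrdc3, an arrestin-domain protein (distance 0.40), followed by Icosl, the ligand of the costimulatory receptor ICOS (0.42), and by Igf1 itself (0.44). Arrdc3 went from 100 ± 3.36 to 287.3 ± 63.2 CPM and Icosl from 14.0 ± 1.2 to 50.2 ± 7.10 CPM. Nearest to Igfbp5 were Synpo2l, a Z-disc protein (0.08), Kcnab3, a subunit of potassium channels (0.19), and Tmod1, which caps thin filaments (0.21). Synpo2l went from 85.5 ± 5.70 to 44.7 ± 9.66 CPM and Tmod1 from 259.2 ± 16.8 to 141.1 ± 22.7 CPM, both with BRL replicate 1 lowest as for Igfbp5. Counts of Tmod1 were not whole. Without BRL replicate 1 the nearest to Irs2 were Hey1, Arrdc3 and Sik1, with Igf1 in place 4 and Icosl in place 6, and the nearest to Igfbp5 were Synpo2l, Tead1 and Frem2, with Tmod1 in place 16 and Kcnab3 in place 18.

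The wider pathway was described over 12 lists of 134 genes in all, some of which stand in more than 1 list. The lists too were chosen with earlier results of these data known, so counts within them are given as a description. Leaving the 10 genes out, 99 of 124 were tested. In the edgeR fit, adjusted over all genes, 2 rose and 5 fell, where 1.01% and 1.79% of all genes tested did. The median log2 fold change was 0.00 as against 0.01 over all genes. Without BRL replicate 1, 9 rose and 22 fell, the 7 among them, where 10.3% and 10.9% of all genes tested were called. The brakes on the receptor held the largest of the 5 falls. Grb14, an adaptor that binds the active insulin receptor and inhibits it, stood at 203.8, 200.1 and 205.5 CPM in the vehicle libraries and at 77.2, 103.0 and 95.5 CPM with BRL (log2 fold change -1.14 ± 0.12, adjusted p = 0.00391), and it passed in every fit that left out a library. The other 13 tested brakes did not pass, and Trib3, a pseudokinase that binds AKT, had 0.47 ± 0.13 (adjusted p = 0.0921; it passed without BRL replicate 1 with 0.41, adjusted p = 0.0178). Ide, the insulin-degrading enzyme, also passed in that fit, in the other direction (-0.46, edgeR adjusted p = 0.000631).

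Of 8 tested genes of insulin-regulated glucose transport 2 fell, where 1.79% of all genes tested did, none rose, and the list median was -0.28. Without BRL replicate 1, 5 fell and 1 rose, where 10.9% and 10.3% of all genes tested were called. Tbc1d4, a substrate of AKT that holds back the glucose transporter GLUT4 until it is phosphorylated, went from 105.5 ± 4.68 to 60.9 ± 5.55 CPM (log2 fold change -0.79 ± 0.10, edgeR adjusted p = 0.00772). Cblb, a ubiquitin ligase of the CBL family, went from 59.0 ± 0.574 to 32.2 ± 1.55 CPM (-0.87 ± 0.10, adjusted p = 0.00448). Slc2a4, the gene of GLUT4, had vehicle values of 74.2, 71.3 and 69.1 CPM and BRL values of 36.1, 52.1 and 57.5 CPM without passing (-0.56 ± 0.16, adjusted p = 0.102; it passed without BRL replicate 1, -0.38, adjusted p = 0.00773). Cbl and Rhoq, which did not pass with all libraries, also passed without it (-0.36 and -0.35, edgeR adjusted p of 0.0178 and 0.00617). Slc2a1, the gene of the basal transporter GLUT1, had 0.37 ± 0.17 (adjusted p = 0.244; counts not whole) and passed without BRL replicate 1 in the other direction (0.54, adjusted p = 0.000899). Tbc1d4 did not pass in fits without vehicle replicate 1, 2 or 3 (adjusted p of 0.0637 to 0.0694), and Cblb not without vehicle replicate 3 (0.0507).

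**Figure D5:**
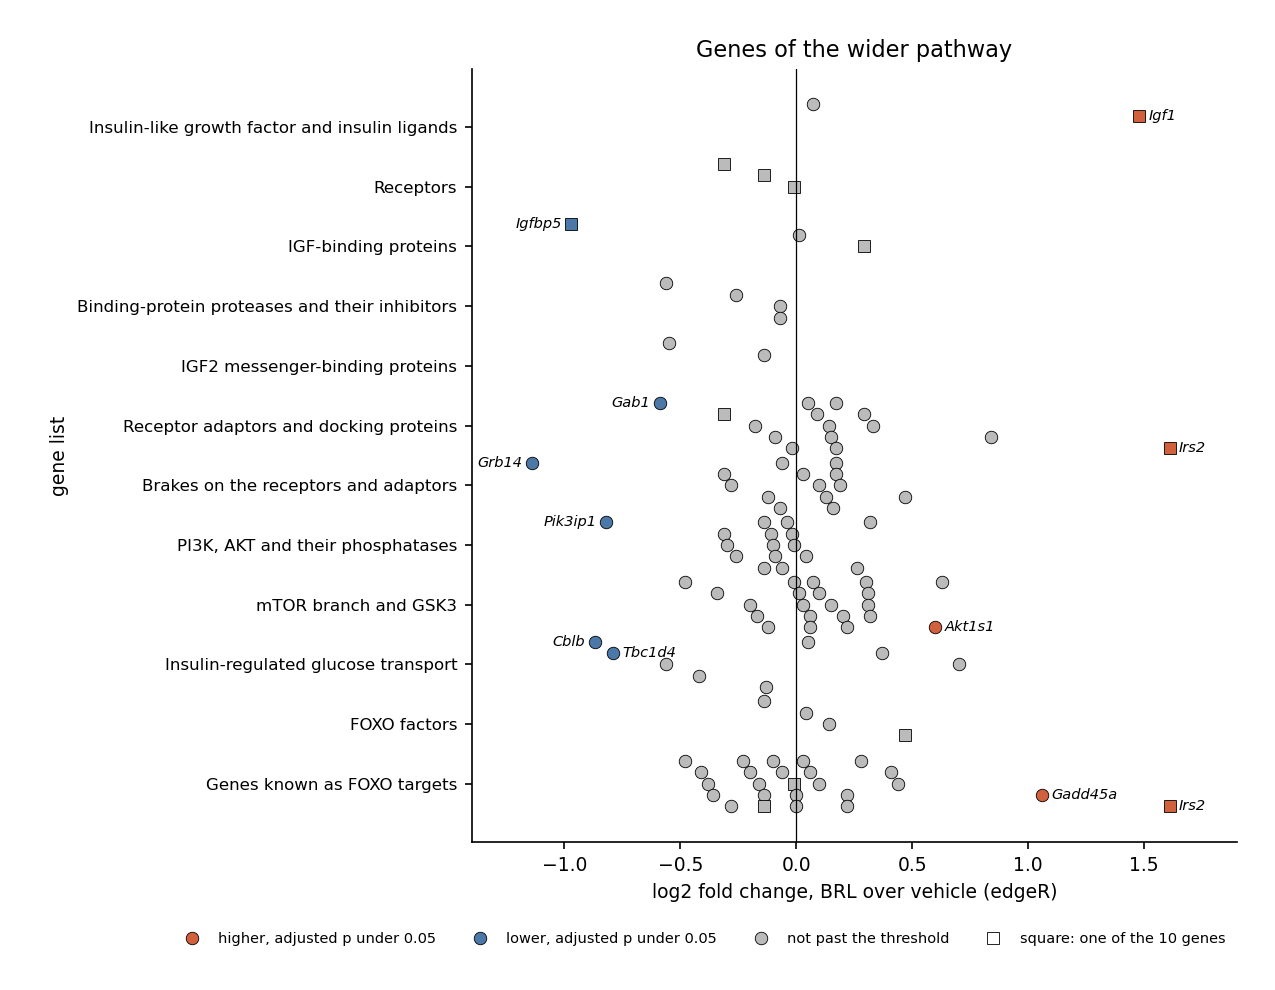
Log2 fold change of BRL over vehicle for each tested gene of the 12 lists, with squares for the 10 genes and colour for those past adjusted p of 0.05. Points past the threshold on the left are Igfbp5, Gab1, Grb14, Pik3ip1, Cblb and Tbc1d4, and on the right Igf1, Irs2, Akt1s1 and Gadd45a.

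Between receptor and AKT, most genes did not pass. Over all genes tested, 1.01% passed as higher and 1.79% as lower. Of 15 tested adaptors and docking proteins, Gab1, a docking protein for PI3K and the phosphatase SHP2, fell from 120.0 ± 4.58 to 79.9 ± 4.18 CPM (log2 fold change -0.59 ± 0.09, edgeR adjusted p = 0.0176) and Irs2 was the 1 in the other direction. Of 16 genes for PI3K, AKT and their phosphatases, Pik3ip1, an inhibitor of PI3K, fell from 33.5 ± 1.2 to 19.0 ± 2.90 CPM (-0.82 ± 0.14, adjusted p = 0.0218; counts not whole). Of 21 genes of the mTOR branch and GSK3, Akt1s1, an AKT substrate that restrains mTOR complex 1, rose from 36.6 ± 1.53 to 55.5 ± 7.81 CPM (0.60 ± 0.13, adjusted p = 0.0477). Counts of Akt1s1 were not whole and its exons overlap Tbc1d17 on the opposite strand. Of the 6 leave-one-out fits, Akt1s1 passed only without BRL replicate 1, Gab1 only without BRL replicate 1, and Pik3ip1 only without BRL replicate 1 or 3.

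Of 25 tested genes known as FOXO targets, 2 were past the threshold, both higher, where 1.01% of all genes tested were, and the list median was -0.01. Irs2, chosen on this contrast, was 1 of them. With the 10 genes left out, the count of 1 higher and 0 lower in this list became 2 higher and 6 lower without BRL replicate 1, where 10.3% and 10.9% of all genes tested were called. The 6 were Ccng2 (-0.52), Pdk4 (-0.42), Trim63, Pik3ca, Rictor and Txnip (-0.33 to -0.21), and Sod2 (0.25) was higher beside Gadd45a. Gadd45a is a stress gene that p53 and other factors also induce (from 22.4 ± 2.80 to 46.7 ± 12.3 CPM, log2 fold change 1.06 ± 0.21, edgeR adjusted p = 0.0385; counts not whole, and of the leave-one-out fits it passed only in that without BRL replicate 1). The muscle ubiquitin ligases Fbxo32 and Trim63, classic FOXO targets in muscle wasting, had log2 fold changes of 0.00 ± 0.16 and -0.23 ± 0.12 (adjusted p of 0.997 and 0.308; counts of Fbxo32 not whole), and Trim63 passed without BRL replicate 1 (-0.33, adjusted p = 0.0167). Insr and Igf1r, which also stand in this list, are described above. Of 4 tested proteases of binding proteins and their inhibitors, Stc1, a stanniocalcin that inhibits the IGFBP protease PAPP-A, had the smallest p (49.5 ± 3.55 and 33.6 ± 4.09 CPM, -0.56 ± 0.12, adjusted p = 0.0530), and Pappa had no counts in any library. Igf2bp1, an RNA-binding protein named for the Igf2 messenger, had -0.55 ± 0.16 (adjusted p = 0.102). Without BRL replicate 1 both passed, Stc1 with -0.46 (adjusted p = 0.00388) and Igf2bp1 with -0.46 (adjusted p = 0.0440).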

How the data were processed

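RNA-seq of 3 vehicle and 3 BRL libraries of HL-1 cells was analysed; groups and replicate numbers come from the sample titles. For each library the authors deposited expected counts from RSEM, 1 per gene, and the RSEM fraction of transcripts, which was scaled here to TPM. The authors' deposited series table holds log2 values of 13863 genes and was used as an alternative. Reads were trimmed and counted with cutadapt, Bowtie and RSEM 1.17 on build NCBIM37, with edgeR also named, per the submitters' processing notes. For settings and strand, the sources used here give nothing. Expected counts share reads between near-identical loci; counts not within 0.005 of a whole number are marked.

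Here the expected counts were rounded to whole numbers. In edgeR 4.0.16 (R 4.3.3), genes were filtered by filterByExpr at 10 counts, scaled by TMM and fitted by quasi-likelihood on group alone, with Benjamini-Hochberg adjustment over 12047 genes at 0.05. The script was tested on simulated data. SE was derived from the fold change and its F statistic. Symbols were matched for 88.4% of genes; exon overlap comes from GENCODE M21 (another build, no coordinates used) and promoters from RefSeq on GRCm38.p6. DESeq2 1.42.0 and limma 3.58.1 served as alternatives. The genes and lists were chosen with earlier results of these data known; 1 gene of the lists is not reported here. Named beyond the 10 genes are, per list, those past the threshold (at most 6) or the 1 of smallest p, the 3 patterns nearest to the genes with the largest rise and fall, and each cell type's most abundant marker; Ins1, Ins2, Foxo4, Foxo6, Trib3, Slc2a4, Slc2a1, Fbxo32, Trim63, Pappa, Ide, Cbl, Rhoq and the further FOXO targets and nearest patterns without BRL replicate 1 were added after their values were seen.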

Additional observations from a re-analysis of the deposited data

How the results depend on the processing

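The log2 fold changes of Igf1, Irs2 and Igfbp5 kept their direction in all 16 alternatives each, at 1.45 to 1.79, 1.43 to 1.72 and -1.14 to -0.81; the highest value of Igf1 was that from TPM, chosen after seeing the data, as were the authors' log2 table and a fit without mitochondrially encoded genes. Over all genes, 122 were higher and 216 lower; without a filter on low counts these were 282 and 330, with DESeq2 242 and 350, and with the replicate block 63 higher (150 lower). In the wider lists the block and limma-voom called 0 higher, against 2, and DESeq2 called 2 higher and 8 lower, against 5 lower. Same-numbered libraries correlated at 0.10, -0.02 and -0.02 in their deviations from the group mean, and differently numbered ones at -0.11 to 0.13. BRL replicate 1 stood apart from the other BRL libraries, so these correlations cannot exclude a pairing by replicate number. Leaving out 1 library gave 17 to 1240 genes higher and 15 to 1315 lower, both highest without BRL replicate 1, 0 to 9 and 1 to 22 in the wider lists, and 2 to 3 and 0 to 1 of the 10 genes. Igf2 and Igfbp7, near 0, changed sign: Igf2 had -0.03 with the replicate block, -0.19 with limma-voom and -0.40 to 0.51 with a library left out, and Igfbp7 -0.01 with upper-quartile factors, 0.00 with a minimum of 5 CPM and -0.04 to 0.08 with a library left out; the cause was not tested. The SE was wide for Irs1, Igf2r and Igf2 (0.30, 0.31 and 0.54), and the part of depth in this was not tested. Vehicle TPM was also recomputed from the same counts with the longest reference transcript as the length of each gene. This moved all detected genes but Igf2r by more than 1 SD (Igf1r from 30.1 to 13.7).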
